A study of Danio rerio with 12 samples.

Results

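The collagen genes of the zebrafish eye were taken as every row of the expression table whose name starts with col, a number, the letter a and a further number, as in col1a1a. The rule found 56 of 25432 rows. Of these, col4a3bpa and col4a3bpb are named for a protein that binds collagen IV and encode no collagen chain, which left 54 collagen genes: 10 fibrillar collagens, 9 collagens of cartilage and vitreous, 9 collagens of basement membranes and 26 of other classes. The names col6a3 and col19a1 each stood on 2 rows with different gene identifiers, and these rows were kept apart. Another 4 rows are called collagens by a gene name table without a name of this form, and they were left out.

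Collagens are proteins of 3 chains wound into a triple helix, each chain made from its own gene or from a gene shared between partners. Fibrillar collagens such as type I are cut at their ends outside the cell and assemble into the fibres that give the sclera, the corneal stroma and bone their strength. Collagen II with collagens IX and XI makes the finer fibrils of cartilage, and the fish sclera holds a ring of cartilage as well as bony ossicles in many species, while the same chains form the gel of the vitreous. Collagen IV is the sheet-forming collagen of every basement membrane, including the lens capsule and the wall of small vessels, and collagens XV and XVIII are attached to such sheets. Zebrafish carry a pair of copies, named a and b, of many of these genes.

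Polyadenylated RNA was sequenced from 12 adult zebrafish eyes, 6 of them akr7a3-/- and 6 akr7a3+/+. The akr7a3-/- fish came from CRISPR/Cas9 injection into Tg(fli1:EGFP) embryos, whose endothelium carries a green fluorescent protein, and hold an insertion in the first exon of akr7a3, an aldo-keto reductase that detoxifies reactive aldehydes such as acrolein, which shifts the reading frame to an early stop. The methods describe 1 insertion allele, the akr7a3+/+ eyes are its unmutated counterpart, and no agent was given to these eyes. The study asks what the loss of the enzyme does to small vessels, and here the question was how the collagen genes stood in the eyes of both genotypes. The labels number the eyes 1, 4, 5, 7, 8 and 9 in akr7a3-/- and 1, 2, 3, 4, 6 and 7 in akr7a3+/+, and do not say whether each came from its own fish, so that all p-values measure the spread between these eyes only. Age and sex were not given in the sources used here.

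The values are FPKM, the reads on a gene per kilobase of its length, scaled to the reads of the eye, so that levels can be compared between genes. The totals worked out from the table ran from 21194609 to 35016388 reads an eye. The gene akr7a3 itself had 0.348 ± 0.0621 FPKM in akr7a3-/- eyes and 2.05 ± 0.541 FPKM in akr7a3+/+ eyes (mean ± SD of 6 eyes a genotype), with no overlap between them. Retina markers, the check of the tissue, were present in every eye. Of 9 tested, 2 were called higher (opn1sw2 and rlbp1a) and 1 lower (rlbp1b) in akr7a3-/- eyes, or 33.3%, against 11.5% of all tested genes. Their sum, most of it rho, ran from 29430 to 36870 FPKM in akr7a3-/- eyes and from 16290 to 28130 FPKM in akr7a3+/+ eyes, without overlap. The rod opsin gene rho averaged 25140 FPKM in akr7a3-/- eyes and 18010 FPKM in akr7a3+/+ eyes. Every akr7a3-/- eye lay above every akr7a3+/+ eye in rho, from 22080 FPKM against at most 21780 FPKM, though it was not called (adjusted p = 0.287 in limma). Summed muscle markers ran from 749 to 1060 FPKM in akr7a3-/- eyes and from 879 to 2023 FPKM in akr7a3+/+ eyes. Of 14 tested rows of muscle markers, 7 (50%) were lower in akr7a3-/- eyes and 0 higher, against 5.77% of all tested genes called lower. In whole eyes, fewer cells of a type and less RNA per cell cannot be told apart.

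Of the 54 collagen genes, 50 reached 0.5 FPKM in 6 eyes or more and were tested. The rows left untested were col8a1a, col28a2a, col28a2b and the shorter of the col6a3 rows. Among the 50, col2a1a and col10a1a were higher in akr7a3-/- eyes and col24a1 and col21a1 were lower, at an adjusted p under 0.05 in limma with Benjamini-Hochberg adjustment over all 18473 genes tested. These 4 genes are 8.0% of the collagens, against 11.5% of all tested genes that were called, 5.78% higher and 5.77% lower. The share of collagens called was thus no larger than the background. At an unadjusted p under 0.05 there were 13 of 50 collagens, against 26.2% of all genes. In 0 of 50 collagens did the eyes of the genotypes not overlap, against 6.62% of all genes, 3.55% with every akr7a3-/- eye higher and 3.06% with every akr7a3-/- eye lower.

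The median log2 fold change of the 50 collagens, akr7a3-/- over akr7a3+/+ on log2(FPKM + 0.5), was 0.15, with 33 genes above 0 and 17 below, and the median of all tested genes was -0.01. By class, the median was 0.12 for the 10 fibrillar collagens, 0.24 for the 9 cartilage and vitreous collagens, 0.21 for the 9 basement membrane collagens and 0.02 for the 22 tested collagens of other classes. Values above 0 were 8 of 9 in the cartilage and vitreous class, 7 of 9 in the basement membrane class and 6 of 10 in the fibrillar class, against 8933 of 18473 genes tested. In the basement membrane class they include col4a1, col4a3, col4a4, col4a5 and col4a6, all of which turned negative in a fit with the eye numbers as a block. Chains of 1 collagen are not independent, so the counts of values above 0 were not tested. The calls were 1 of 10 in the fibrillar class and 1 of 9 in the cartilage and vitreous class. They were 0 of 9 in the basement membrane class and 2 of 22 in the others, against 11.5% of all tested genes.

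**Figure D1:**
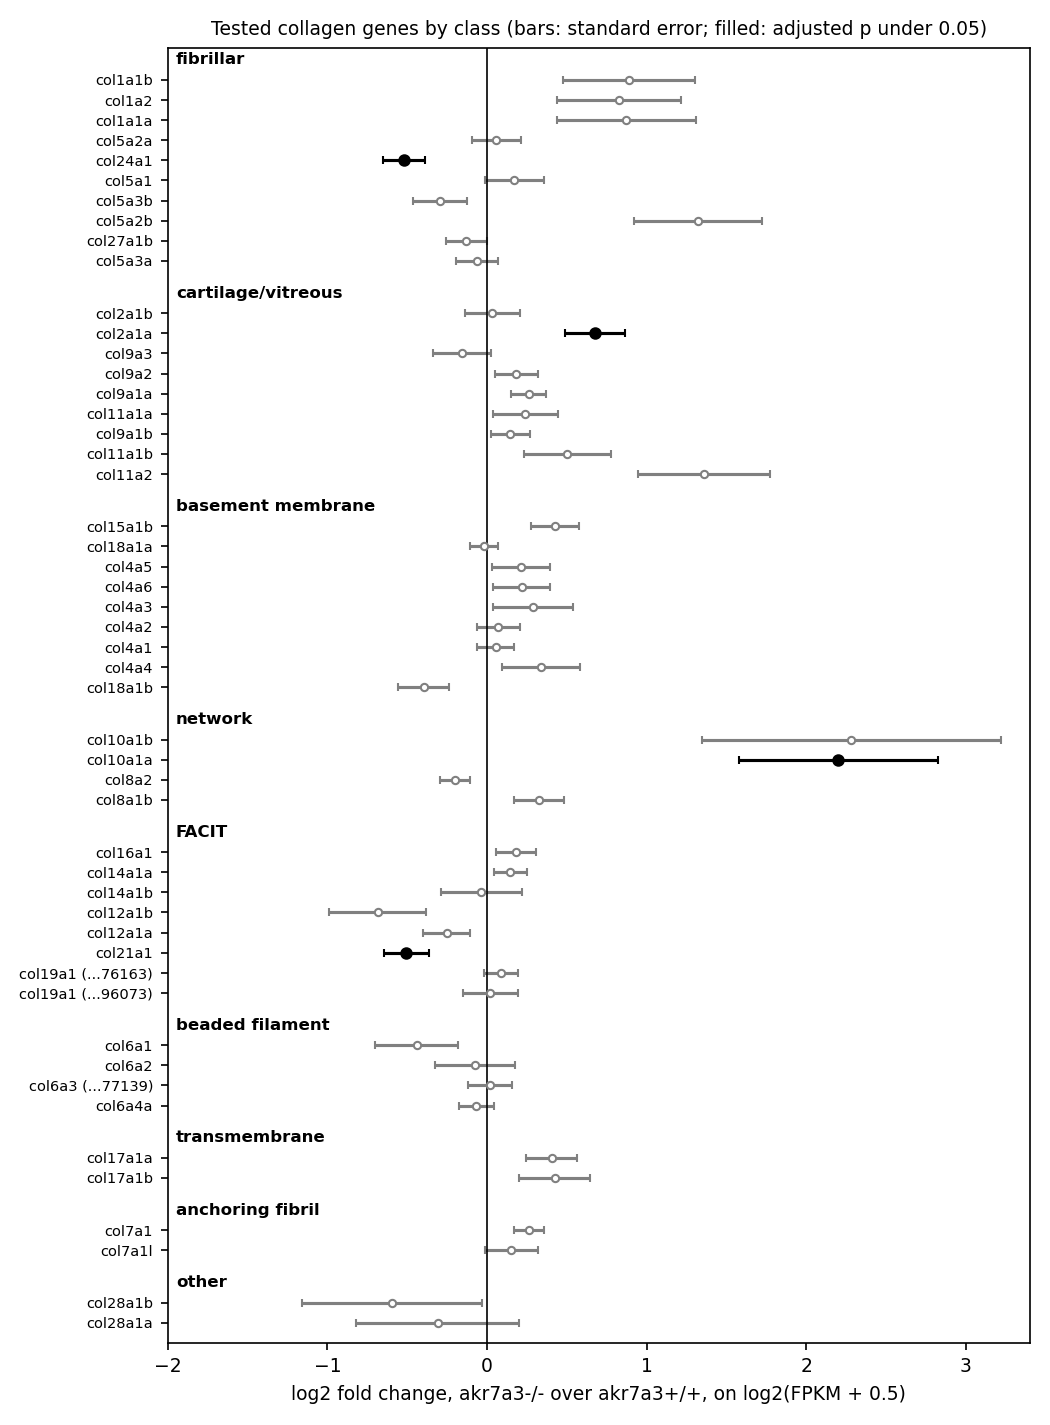
Each of the 50 tested collagen genes is plotted by its log2 fold change, akr7a3-/- over akr7a3+/+ on log2(FPKM + 0.5), with its standard error as the bar, grouped by class and ordered by level within a class. The 4 filled points are the called genes col24a1, col2a1a, col10a1a and col21a1, and the points farthest to the right, col10a1b and col10a1a at 2.28 and 2.201, also have the widest bars.

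The summed levels set the classes apart. Fibrillar collagens summed to 389 ± 118 FPKM in akr7a3-/- eyes and 265 ± 148 FPKM in akr7a3+/+ eyes, each the mean ± SD of 6 eyes. Cartilage and vitreous collagens summed to 75.2 ± 11.9 FPKM in akr7a3-/- eyes and 64.5 ± 17.2 FPKM in akr7a3+/+ eyes, and basement membrane collagens to 83.0 ± 10.96 FPKM in akr7a3-/- eyes and 71.0 ± 8.99 FPKM in akr7a3+/+ eyes. In every class the eyes of the genotypes overlapped, and no test was run on these sums. The spread was widest in the fibrillar class of akr7a3+/+ eyes, whose highest eye had 5.94 times the sum of the lowest, against 2.09 times in akr7a3-/- eyes. In the basement membrane class the same measure was 1.38 in akr7a3-/- eyes and 1.34 in akr7a3+/+ eyes.

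**Figure D2:**
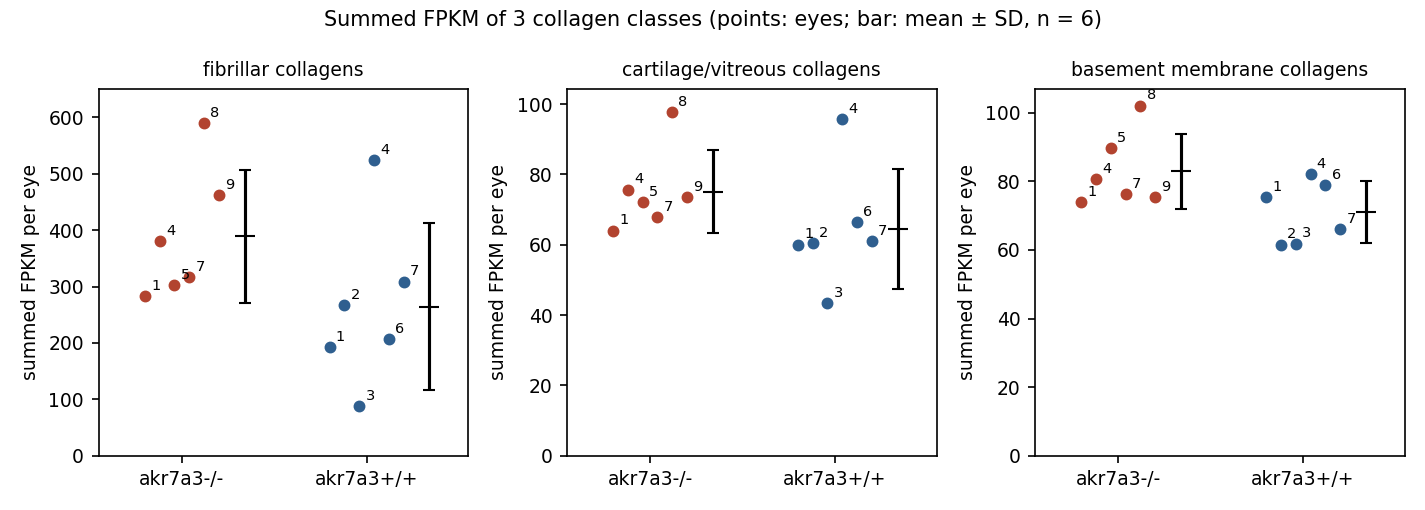
Summed FPKM per eye is plotted for 3 collagen classes, akr7a3-/- eyes on the left and akr7a3+/+ eyes on the right of each panel, with the eye's number beside each point and the mean ± SD as a bar. In the fibrillar panel akr7a3+/+ eye 3 lies lowest at 88.1 FPKM and akr7a3+/+ eye 4 lies at 523.7 FPKM, which is above all akr7a3-/- eyes but eye 8.

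Type I collagen, the main protein of bone, sclera and corneal stroma, led the fibrillar class. The genes for its chains, col1a1a, col1a1b and col1a2, were the 3 most abundant collagens of the eye and together gave 38.6% to 49.7% of all collagen FPKM in akr7a3-/- eyes and 16.2% to 48.1% in akr7a3+/+ eyes. The gene col1a1b (ENSDARG00000035809) had 97.6, 119 and 214 FPKM in the lowest, median and highest akr7a3-/- eye, against 19.97, 80.0 and 179 FPKM in akr7a3+/+ eyes. Among akr7a3+/+ eyes, eye 3 was lowest and eye 4 highest, and eye 4 lay above all akr7a3-/- eyes but eye 8, so that the genotypes overlapped. Its log2 fold change of 0.89 (SE 0.41) did not pass the test, with an adjusted p of 0.193 in limma. Its partners gave like values that also did not pass, 0.83 (SE 0.39, adjusted p = 0.2001 in limma) for col1a2 (ENSDARG00000020007) and 0.87 (SE 0.43, adjusted p = 0.226 in limma) for col1a1a (ENSDARG00000012405).

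The type I chains kept close proportions in each eye while their level varied widely. Summed over the 3 genes, type I collagen ran from 241 to 543.9 FPKM in akr7a3-/- eyes, a 2.26-fold range, and from 52.8 to 470.2 FPKM in akr7a3+/+ eyes, an 8.91-fold range. The ratio of col1a2 to col1a1a ran from 0.913 to 1.08 in akr7a3-/- eyes and from 0.934 to 1.30 in akr7a3+/+ eyes, the highest in akr7a3+/+ eye 3. The ratio of col1a1b to col1a1a ran from 1.21 to 1.41 in akr7a3-/- eyes and from 1.21 to 1.42 in akr7a3+/+ eyes.

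The fibrillar collagen that passed the test, col24a1 (ENSDARG00000095843), was lower in akr7a3-/- eyes. Collagen XXIV is a minor fibrillar collagen. The gene had 7.74, 9.08 and 12.1 FPKM in the lowest, median and highest akr7a3-/- eye, against 10.2, 14.1 and 17.03 FPKM in akr7a3+/+ eyes. The akr7a3-/- eyes 1 and 4 lay above the lowest akr7a3+/+ eye, eye 2, so the genotypes overlapped at that end only. On the log2 scale it fell by 0.52 (SE 0.13, adjusted p = 0.0221 in limma), and the exact two-sided permutation test over the eyes gave p = 0.0108, before adjustment. The call was lost without akr7a3-/- eye 8, with an adjusted p of 0.0532 in limma, and held without each of the other eyes. The length that reconciles its FPKM with whole reads is 1185 bases, shorter than in the other fibrillar genes, and its reads ran from 240.0 to 617 an eye.

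Collagen V starts and thins the fibrils of type I, and of its genes the copies col5a2a and col5a2b are given here. The gene col5a2b (ENSDARG00000024847) had 3.08, 4.91 and 9.26 FPKM in the lowest, median and highest akr7a3-/- eye, against 0.347, 1.67 and 5.19 FPKM in akr7a3+/+ eyes. The 5 lowest eyes of all 12 were akr7a3+/+ eyes 3, 6, 1, 2 and 7, while akr7a3+/+ eye 4 lay among the akr7a3-/- eyes. Its log2 fold change was 1.32 (SE 0.40), and with an adjusted p of 0.0504 in limma it lay just beyond the threshold. Its copy col5a2a, the more abundant of the pair, had 15.4 ± 2.15 FPKM in akr7a3-/- eyes and 15.1 ± 3.88 FPKM in akr7a3+/+ eyes (SD, 6 eyes a genotype), and its log2 fold change was 0.06 (SE 0.15). With a filter of at least 1 FPKM in the mean over all eyes, 1 as the added constant, or voom on the recovered reads, col5a2b and the cartilage collagen col11a2 were called as well, which brought the collagens called to 6.

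In the cartilage and vitreous class, col2a1a passed the test and its copy col2a1b did not. Collagen II is the main fibril protein of cartilage and of the vitreous gel. The gene col2a1a (ENSDARG00000069093) had 12.4, 14.7 and 18.4 FPKM in the lowest, median and highest akr7a3-/- eye, against 4.78, 9.70 and 13.5 FPKM in akr7a3+/+ eyes. Only akr7a3+/+ eye 4 reached into the range of akr7a3-/- eyes. The gene rose by 0.68 on the log2 scale (SE 0.19, adjusted p = 0.0347 in limma), and the exact two-sided permutation test over the eyes gave p = 0.00433, before adjustment. The call was lost without akr7a3-/- eye 4, 5, 7 or 8 or akr7a3+/+ eye 1 or 2, each time with an adjusted p of at most 0.0784 in limma, and the log2 fold change lay between 0.50 and 0.79 without any 1 eye.

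The copy col2a1b (ENSDARG00000011407), the most abundant collagen of this class, had 16.2, 19.8 and 23.8 FPKM in the lowest, median and highest akr7a3-/- eye, against 10.9, 19.5 and 27.9 FPKM in akr7a3+/+ eyes. The akr7a3-/- eyes all lay within the range of the akr7a3+/+ eyes, and the log2 fold change was 0.03 (SE 0.17, adjusted p = 0.930 in limma). Within each eye, the ratio of col2a1a to col2a1b was 0.832, 0.765, 0.911, 0.719, 0.773 and 0.599 in akr7a3-/- eyes 1, 4, 5, 7, 8 and 9, against 0.457, 0.477, 0.437, 0.483, 0.490 and 0.518 in akr7a3+/+ eyes 1, 2, 3, 4, 6 and 7. Every akr7a3-/- eye lay above every akr7a3+/+ eye, and the akr7a3+/+ eyes lay close together although their level of col2a1a varied 2.82-fold and that of col2a1b 2.55-fold. This was the only 1 of 18 ratios of partner chains or copies whose genotypes did not overlap, and it was not tested. Among single genes, the genotypes did not overlap in 6.62% of all tested, and no such share was worked out for ratios. Reads of such near copies can be split between them by the counting, whose rule for reads that fit several genes is not given in the sources used here.

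**Figure D3:**
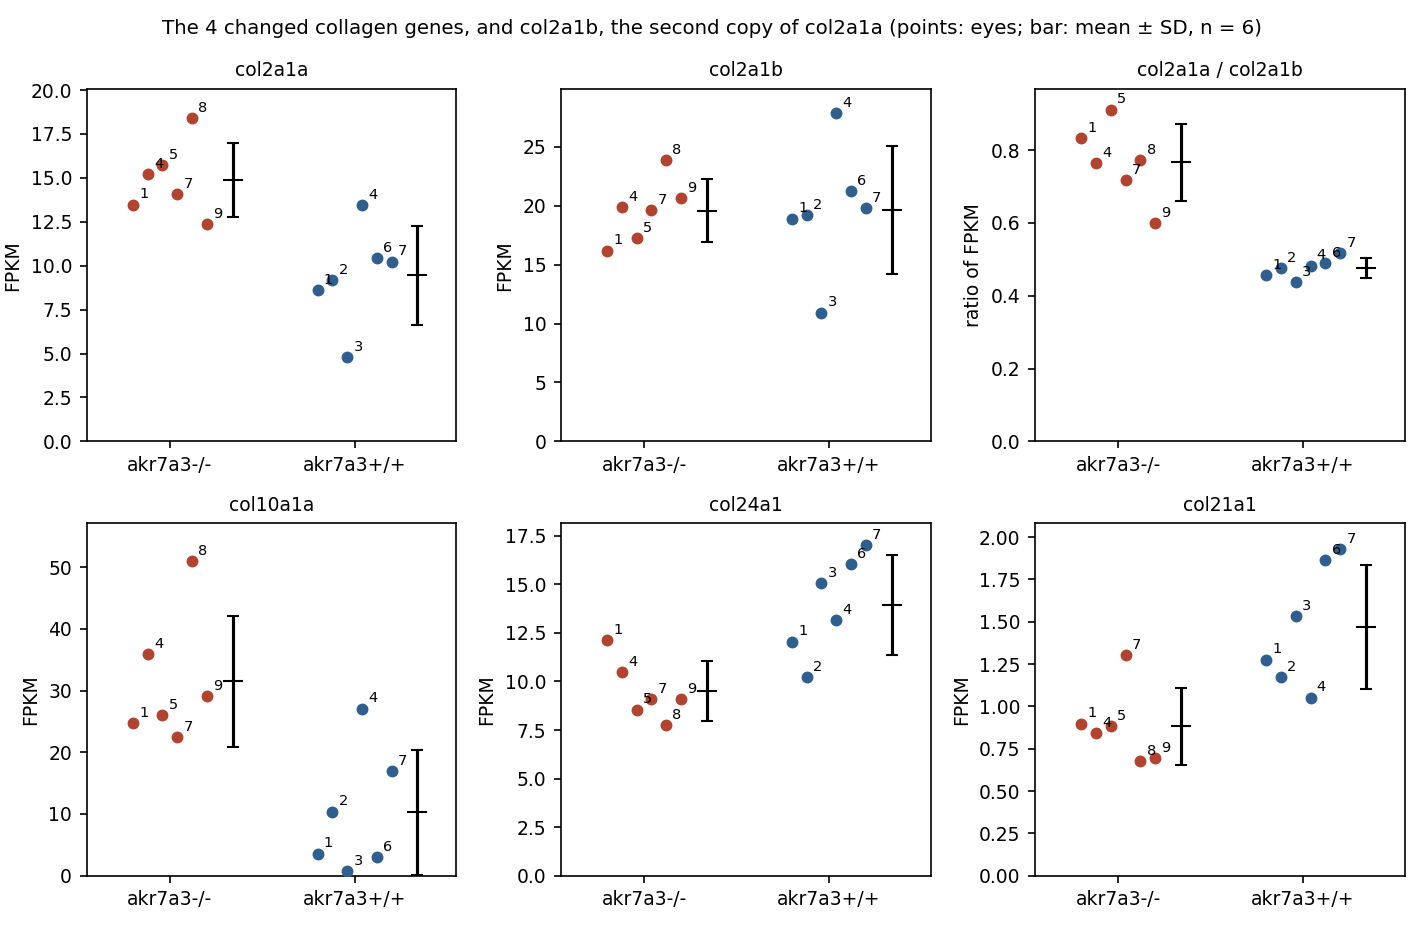
FPKM per eye is plotted for the 4 called genes and for col2a1b, together with the ratio of col2a1a to col2a1b, akr7a3-/- eyes on the left and akr7a3+/+ eyes on the right, with the eye's number beside each point and the mean ± SD as a bar. Only in the ratio panel do the genotypes part without overlap, with akr7a3-/- eyes from 0.599 and akr7a3+/+ eyes up to 0.518.

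The remaining genes of the class did not pass the test. Collagen IX sits on the surface of collagen II fibrils, and its chain gene col9a3 (ENSDARG00000037845) had 9.55 ± 1.61 FPKM in akr7a3-/- eyes and 11.1 ± 3.92 FPKM in akr7a3+/+ eyes (SD, 6 eyes a genotype), and its log2 fold change was -0.16 (SE 0.18). Its highest eye was akr7a3+/+ eye 4, at 18.3 FPKM, and the ratio of col9a3 to its partner col9a2 ran from 0.994 to 1.33 in akr7a3-/- eyes and from 1.06 to 1.84 in akr7a3+/+ eyes. Collagen XI forms the core of the same fibrils. The gene col11a2 (ENSDARG00000012422) had 2.29, 3.96 and 7.25 FPKM in the lowest, median and highest akr7a3-/- eye, against 0.164, 1.34 and 3.79 FPKM in akr7a3+/+ eyes. Its order of eyes resembled that of col5a2b, with akr7a3+/+ eyes 3, 6 and 1 lowest and akr7a3+/+ eye 4 among the akr7a3-/- eyes. Its log2 fold change was 1.36 (SE 0.41, adjusted p = 0.0513 in limma), just beyond the threshold, while col11a1a and col11a1b had 0.24 and 0.50.

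Basement membrane collagens gave 0 calls of 9 in limma, with 2 at an unadjusted p under 0.05. Among all tested genes these shares were 11.5% and 26.2%, and 9 genes are too few to set apart from them. Voom on the recovered reads also called 0 of the 9. Collagens XV and XVIII bridge basement membranes to the stroma beneath, and endostatin, a fragment of collagen XVIII, restrains vessel growth. The gene col15a1b (ENSDARG00000061848), the most abundant of the class, had 24.7, 28.4 and 32.9 FPKM in the lowest, median and highest akr7a3-/- eye, against 15.95, 18.8 and 31.3 FPKM in akr7a3+/+ eyes. Of the akr7a3+/+ eyes, only eyes 4 and 6 reached the range of akr7a3-/- eyes. The log2 fold change of 0.43 (SE 0.15, adjusted p = 0.0929 in limma) did not pass, and without akr7a3+/+ eye 6 it passed, at 0.54 with an adjusted p of 0.0211 in limma.

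The gene col18a1a (ENSDARG00000036558) had 18.1 ± 1.51 FPKM in akr7a3-/- eyes and 18.4 ± 2.22 FPKM in akr7a3+/+ eyes (SD, 6 eyes a genotype), and its log2 fold change was -0.02 (SE 0.09). Its rarer copy col18a1b had 0.742 ± 0.154 FPKM in akr7a3-/- eyes and 1.17 ± 0.398 FPKM in akr7a3+/+ eyes, and its log2 fold change was -0.40 (SE 0.16, adjusted p = 0.133 in limma). The genotypes overlapped in both copies.

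Collagen IV molecules combine chains 1 and 2, chains 3, 4 and 5, or chains 5 and 6, and the last 2 sets are known from the lens capsule and kidney. The genes col4a1 and col4a2, which serve in nearly every basement membrane including that of vessels, had log2 fold changes of 0.05 (SE 0.11) and 0.07 (SE 0.13). Their ratio, col4a2 to col4a1, ran from 0.958 to 1.35 in akr7a3-/- eyes and from 0.927 to 1.51 in akr7a3+/+ eyes. The gene col4a5 (ENSDARG00000052063) had 8.90, 14.1 and 19.1 FPKM in the lowest, median and highest akr7a3-/- eye, against 9.74, 10.9 and 14.6 FPKM in akr7a3+/+ eyes. The akr7a3-/- eyes spread to either side of the akr7a3+/+ eyes, and the log2 fold change was 0.21 (SE 0.18, adjusted p = 0.493 in limma). The genes col4a6, col4a3 and col4a4 likewise had values of 0.22, 0.29 and 0.34 that did not pass.

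The lowest values of col4a3, col4a4, col4a5 and col4a6 came in the eye with the least lens marker RNA. The gene col4a1 was lowest in akr7a3+/+ eye 2, at 1.94 FPKM, and col4a2 in akr7a3+/+ eye 3, at 2.44 FPKM. Among akr7a3-/- eyes, col4a3 had 1.71 FPKM in eye 1 and 7.22 FPKM in eye 5, and the ratio of col4a4 to col4a3 stayed between 0.292 and 0.397 across all akr7a3-/- eyes and between 0.267 and 0.364 across akr7a3+/+ eyes. Collagen XXVIII, a collagen with von Willebrand factor domains, varied far more. Its gene col28a1b had 0.270 FPKM in akr7a3-/- eye 1 and from 3.79 to 15.3 FPKM in the other akr7a3-/- eyes, against 6.36 to 9.52 FPKM in akr7a3+/+ eyes. Its copy col28a1a had 0.271 FPKM in akr7a3-/- eye 1 and from 2.01 to 8.96 FPKM in the other akr7a3-/- eyes, against 2.45 to 7.09 FPKM in akr7a3+/+ eyes. The log2 fold changes of -0.59 (SE 0.56) and -0.31 (SE 0.51) did not pass, and without akr7a3-/- eye 1 they were -0.03 and 0.16.

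The lens markers stood out in the same eye. Their sum was 214 FPKM in akr7a3-/- eye 1, 2070 FPKM in eye 7 and 2792 to 6580 FPKM in the other akr7a3-/- eyes, against 3236 to 6232 FPKM in akr7a3+/+ eyes. Of the 12 lens markers 10 were tested, and all 10 had a log2 fold change below 0, against 9540 of 18473 genes tested. Markers of 1 tissue are not independent, so this count was not tested. By limma or by voom 0 were called, with 1 at an unadjusted p under 0.05 in each. In limma 11.5% of all tested genes were called and 26.2% had an unadjusted p under 0.05. The genes crygm2d1 and crygm2d2 were at 0 in 7 and 9 of the 12 eyes. The part of lens content in the collagen IV and XXVIII values was not tested.

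**Figure D4:**
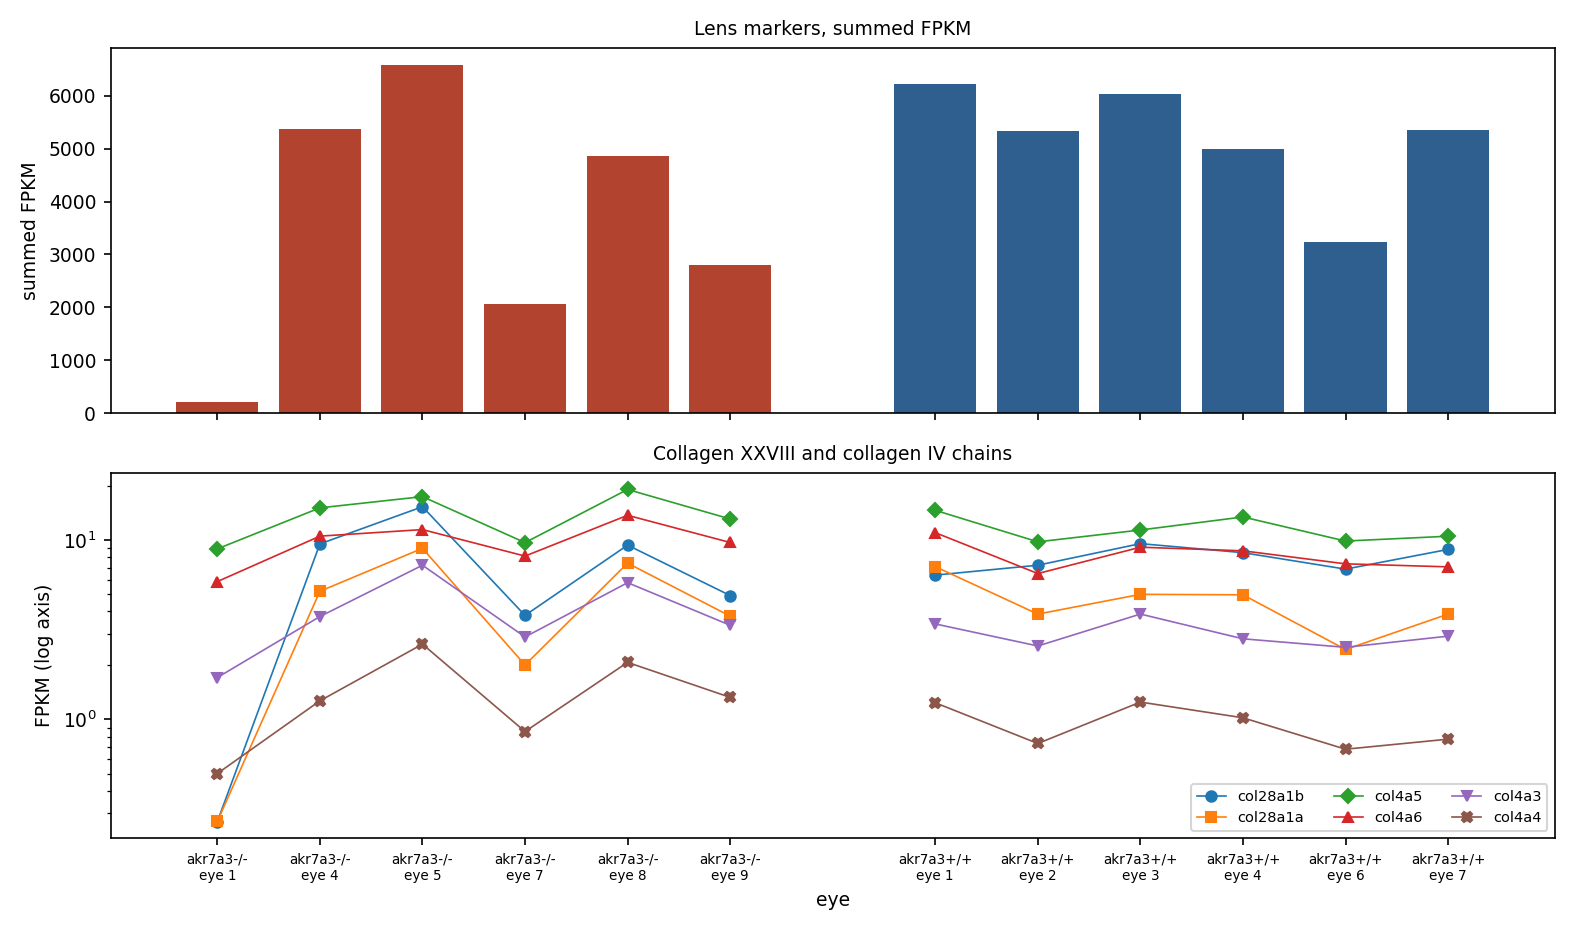
The upper panel gives the summed FPKM of the lens markers in each eye and the lower panel the FPKM, on a log axis, of the 2 collagen XXVIII genes and 4 collagen IV genes, akr7a3-/- eyes on the left and akr7a3+/+ eyes on the right. Eye 1 of akr7a3-/- has the lowest value of all 12 eyes in every row, with 214 FPKM of lens markers and 0.270 FPKM of col28a1b.

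Collagen X had the largest log2 fold changes of the 50 tested collagens and among the widest spreads within them. It is a network-forming collagen made by cartilage cells before they mineralise and, in zebrafish, also by bone-forming cells. The gene col10a1a (ENSDARG00000054753) had 22.4, 27.5 and 51.0 FPKM in the lowest, median and highest akr7a3-/- eye, against 0.697, 6.97 and 27.1 FPKM in akr7a3+/+ eyes. Only akr7a3+/+ eye 4 reached into the range of akr7a3-/- eyes. The gene rose by 2.201 on the log2 scale (SE 0.63, adjusted p = 0.0386 in limma), and the exact two-sided permutation test over the eyes gave p = 0.00866, before adjustment. The call was lost without any 1 of the 6 akr7a3-/- eyes, without akr7a3+/+ eye 1 or 6, with an adjusted p of at most 0.0835 in limma, and with no filter on low genes, at 0.0572, while the log2 fold change lay between 1.70 and 2.61 without any 1 eye.

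The copy col10a1b (ENSDARG00000101535) had 12.4, 38.5 and 97.5 FPKM in the lowest, median and highest akr7a3-/- eye, against 0.160, 11.3 and 56.2 FPKM in akr7a3+/+ eyes. The akr7a3+/+ eyes 4, 7 and 2 lay within the range of akr7a3-/- eyes. Its log2 fold change of 2.28 (SE 0.94, adjusted p = 0.139 in limma) did not pass, and the ratio of col10a1a to col10a1b ran from 0.298 to 1.80 in akr7a3-/- eyes and from 0.482 to 4.35 in akr7a3+/+ eyes. The highest ratio, in akr7a3+/+ eye 3, rests on few reads, since the lowest count of col10a1b in any eye was 8 reads.

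In type I collagen, col5a2b, col11a2 and collagen X, akr7a3+/+ eye 3 was the lowest of all 12 in each of the 7 genes, and akr7a3+/+ eye 4 the highest of its genotype. The same held for 19 of the 50 tested collagens, among them col2a1a, col2a1b, col11a1a, col11a1b, col5a1 and col6a2, and akr7a3+/+ eye 3 was lowest in 23 of the 50. This order was not counted over all genes, so no background share stands beside these counts or those of the bone markers below. The eye with the fewest reads of all 12 was also akr7a3+/+ eye 3, at 21194609. Among akr7a3-/- eyes the highest was eye 9 in col10a1b and eye 8 in the other 6 of the 7 genes. Bone-forming genes, a list drawn up after the collagen values and the values of the list itself were seen, were set beside them. Of these, sp7, a transcription factor of osteoblasts, had 0.210 to 0.502 FPKM in akr7a3-/- eyes and 0.0838 to 0.374 FPKM in akr7a3+/+ eyes, again lowest in eye 3 and highest in eye 4. With 10 to 99 reads an eye, sp7 lay below the filter and was not tested. Of the 13 bone markers above 0 in every eye, 7 were lowest of all 12 in akr7a3+/+ eye 3, while panx3 was lowest in akr7a3+/+ eye 6, phospho1 in akr7a3+/+ eye 1, and runx2a was highest in akr7a3+/+ eye 3. Of the 14 genes of the list 9 were tested, and all 9 had a log2 fold change above 0, against 8933 of 18473 genes tested. Their median was 0.19, and they ran from 0.01 to 1.34. Many of these genes share an order of eyes and are not independent, so this count was not tested. The share called, 11.1%, was no larger than the 11.5% of all tested genes. Only entpd5a, which mineralising zebrafish bone needs, passed, at 1.08 (adjusted p = 0.0171 in limma), while spp1, a protein of bone matrix, had 1.34 (adjusted p = 0.0503 in limma). Reads of entpd5a ran from 6 to 268 an eye. The summed bone markers ran from 110.3 to 164 FPKM in akr7a3-/- eyes and from 84.1 to 150.3 FPKM in akr7a3+/+ eyes, and bglap was at 0 in 4 of the 12 eyes.

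**Figure D5:**
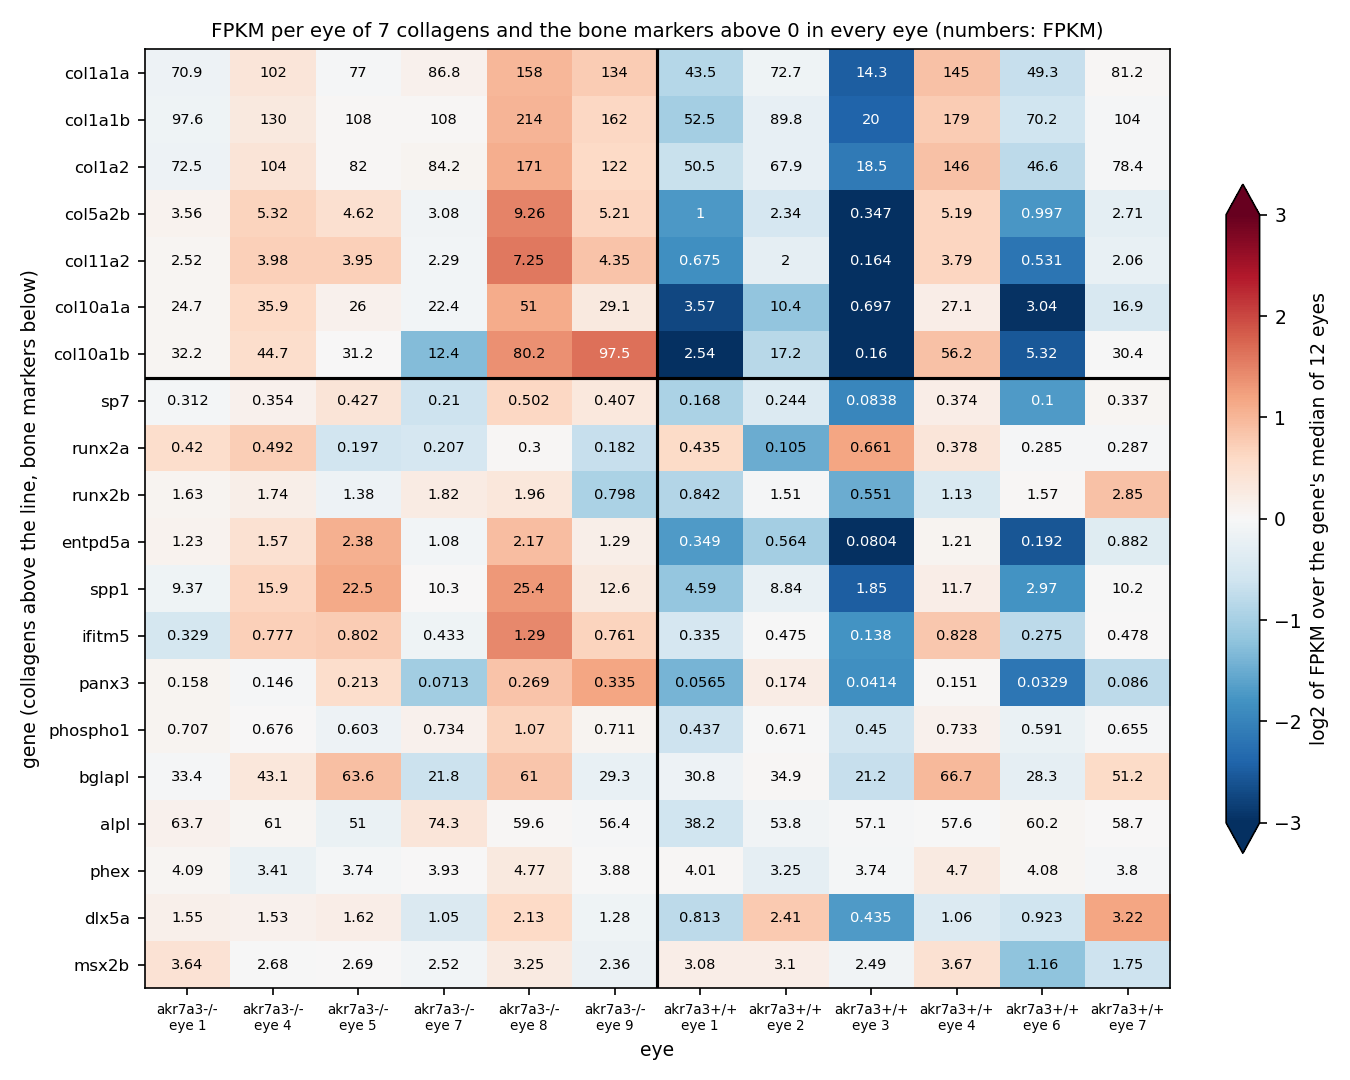
FPKM is printed in each cell for 7 collagens, above the line, and for the bone markers above 0 in every eye, below it, with akr7a3-/- eyes in the left columns and akr7a3+/+ eyes in the right columns; the colour is the log2 of the FPKM over the gene's median of 12 eyes. The column of akr7a3+/+ eye 3 is the lowest in all 7 collagens and in 7 of the 13 bone markers, while runx2a is highest there and alpl and phex differ little between eyes.

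The sum of the red cell markers, most of it hbaa1 and hbba1, followed a related order. This sum ran from 864 to 1708 FPKM in akr7a3-/- eyes and from 136 to 1382 FPKM in akr7a3+/+ eyes, lowest in akr7a3+/+ eye 3 and highest of its genotype in eye 4. Not all markers had this order: hbba2 was highest of its genotype in akr7a3+/+ eye 3, at 4.43 FPKM, and its log2 fold change was -0.09. The lowest eye of hbaa2 was akr7a3+/+ eye 2. Of the 7 rows tested only slc4a1a was called, higher, or 14.3% against 11.5% of all tested genes. In 8 of the 12 eyes hbae5 was at 0, and hbaa2 in 1. The part of bone tissue, blood or other tissue left on the eyes in these collagen values was not tested. Without akr7a3+/+ eye 3 the log2 fold change of col1a1b was 0.53 and that of col10a1a 1.70, and without akr7a3+/+ eye 4 they were 1.16 and 2.61.

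Among the remaining classes, col21a1 (ENSDARG00000025320) passed the test. Collagen XXI belongs to the FACIT collagens, which bind along fibrils and whose triple helix is interrupted. It had 0.676, 0.863 and 1.30 FPKM in the lowest, median and highest akr7a3-/- eye, against 1.05, 1.41 and 1.93 FPKM in akr7a3+/+ eyes. Of the akr7a3-/- eyes, only eye 7 lay within the range of the akr7a3+/+ eyes. On the log2 scale it fell by 0.51 (SE 0.14, adjusted p = 0.0371 in limma), and the exact two-sided permutation test over the eyes gave p = 0.00866, before adjustment. The gene was near the filter, with 41 to 127 reads an eye. The call was lost without akr7a3-/- eye 1, 4, 5, 8 or 9 or akr7a3+/+ eye 3, 6 or 7, with an adjusted p of at most 0.0831 in limma, and with quantile normalization, at 0.0549.

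Another FACIT collagen, col12a1b, which ties fibrils together in tendon and cornea, had 1.91, 2.79 and 3.27 FPKM in the lowest, median and highest akr7a3-/- eye, against 1.95, 4.49 and 9.47 FPKM in akr7a3+/+ eyes. Its high values came from akr7a3+/+ eyes 3 and 1, at 9.47 and 8.40 FPKM, which also had the most muscle markers, 2023 and 1498 FPKM summed, and the part of muscle in this value was not tested. The log2 fold change of -0.69 (SE 0.31, adjusted p = 0.174 in limma) did not pass.

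Epithelial collagens gave positive log2 fold changes that did not pass the test. Collagen XVII spans the membrane of basal epithelial cells in the hemidesmosome and collagen VII anchors their basement membrane. The gene col17a1a (ENSDARG00000069415) had 22.1, 33.5 and 44.1 FPKM in the lowest, median and highest akr7a3-/- eye, against 19.8, 23.6 and 34.2 FPKM in akr7a3+/+ eyes. The genotypes overlapped between akr7a3-/- eye 5, at 22.1 FPKM, and akr7a3+/+ eye 1, at 34.2 FPKM. The other akr7a3-/- eyes had at least 27.8 FPKM and the other akr7a3+/+ eyes at most 25.6 FPKM. The log2 fold change was 0.40 (SE 0.16, adjusted p = 0.130 in limma), and it passed only without akr7a3-/- eye 5, with an adjusted p of 0.0412 in limma. The values were 0.42 (SE 0.22, adjusted p = 0.250 in limma) for its copy col17a1b and 0.26 (SE 0.09, adjusted p = 0.0892 in limma) for col7a1. Of the 8 markers of corneal epithelium and skin, 0 were called by limma or by voom, with 1 at an unadjusted p under 0.05 in each. In limma 11.5% of all tested genes were called and 26.2% had an unadjusted p under 0.05. The sum of the 8 markers ran from 3240 to 5188 FPKM in akr7a3-/- eyes and from 3042 to 5224 FPKM in akr7a3+/+ eyes.

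Collagen VI builds beaded filaments around cells, and its genes col6a1 and col6a2 had 1 akr7a3+/+ eye far above the others. The gene col6a1 had 12.9, 14.4 and 19.1 FPKM in the lowest, median and highest akr7a3-/- eye, against 11.6, 20.7 and 45.1 FPKM in akr7a3+/+ eyes. The value of 45.1 FPKM was in akr7a3+/+ eye 4, which at 26.9 FPKM was also highest in col6a2. The ratio of col6a2 to col6a1 ran from 0.7998 to 0.896 in akr7a3-/- eyes and from 0.549 to 0.867 in akr7a3+/+ eyes, where only eye 1 overlapped with the akr7a3-/- eyes. The log2 fold changes were -0.44 (SE 0.26) for col6a1 and -0.07 (SE 0.25) for col6a2, and neither passed. Collagen VIII, the network collagen of the membrane beneath the corneal endothelium, had -0.20 (SE 0.10, adjusted p = 0.206 in limma) in col8a2 and 0.33 (SE 0.16, adjusted p = 0.207 in limma) in col8a1b. In an annotation of another assembly, 4 collagen genes share the chromosome of akr7a3, namely col2a1b, col6a1, col6a2 and col9a1a. Of these, 0 were called, against 11.5% of all tested genes, and 4 genes are too few to compare with that share. The ratios of col2a1a to col2a1b and of col6a2 to col6a1 include such genes, and the part of their position was not tested.

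The genes that make, cut and bind collagen were counted in lists. Of 39 tested genes for collagen folding, secretion and cross-linking, 5.13% were called, against 11.5% of all tested genes. Of the 39, 2 were higher and 0 lower. They were plod3, a lysyl hydroxylase that also adds sugars to collagen, which rose by 0.34 on the log2 scale (adjusted p = 0.00852 in limma), and fkbp10a, a chaperone of the collagen helix, which rose by 0.48 (adjusted p = 0.0244 in limma). In both, every akr7a3-/- eye lay above every akr7a3+/+ eye, from 9.17 FPKM against at most 8.81 FPKM in plod3 and from 2.08 FPKM against at most 2.07 FPKM in fkbp10a. These were the only 2 of the 39 genes without overlap. Among all tested genes, 6.62% had no overlap, 3.55% with every akr7a3-/- eye higher. Of 26 tested proteases and their inhibitors, the matrix metalloproteinases mmp25a and mmp11b were higher, at 1.03 and 0.67, and adamts5, which cuts the cartilage proteoglycan aggrecan, was lower, at -0.43. These calls were fragile: leaving out 1 eye lost mmp25a in 9 of 12 fits, mmp11b in 7 and adamts5 in 2. Reads were few, with as few as 4 an eye in mmp25a and 16 in mmp11b. Of 17 tested collagen receptors 0 were called by limma or by voom, with 0 at an unadjusted p under 0.05 in limma and 1 in voom. Among all tested genes 11.5% were called in limma and 26.2% had an unadjusted p under 0.05.

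Companions in each tissue were counted in the same way. Of 28 tested basement membrane genes other than collagens, 4 (14.3%) were called, against 11.5% of all tested genes. An unadjusted p under 0.05 in limma was found in 13 of the 28, a larger share than the 26.2% of all tested genes. This difference in shares was not tested. Voom on the recovered reads called 6 of the 28, and among all 18473 genes it called 1085 higher and 1039 lower. Of the 4, lamb2l and pxdn were higher, at 0.48 and 0.40, and nid2a and lama2, a laminin chain of muscle basement membranes, lower, at -0.44 and -0.31. The gene pxdn encodes peroxidasin, the enzyme that cross-links collagen IV, and nid2a encodes nidogen, which joins laminin to it. The call of lama2, with 33 to 88 reads an eye, was lost in 11 of 12 fits that left out 1 eye, and the part of muscle in its value was not tested. Of 17 tested cartilage companions, sox9a, a transcription factor that drives col2a1 in cartilage, was lower, at -0.61 (adjusted p = 0.0153 in limma). Its copy sox9b had -0.06 (adjusted p = 0.829 in limma), and acana and acanb were too low to be tested. Which cells of the eye gave the sox9a value was not tested. Of the 17, 13 had a positive log2 fold change and 4 a negative one.

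The companions of the stroma had the clearest gene. Of 24 tested, kera, bgna and mxra8a were higher and 0 were lower. Keratocan, the product of kera, is a proteoglycan that spaces collagen fibrils in the cornea. It had 149, 194 and 271 FPKM in the lowest, median and highest akr7a3-/- eye, against 61.6, 86.0 and 111 FPKM in akr7a3+/+ eyes. All akr7a3-/- eyes lay above all akr7a3+/+ eyes, and the log2 fold change was 1.20 (SE 0.15, adjusted p = 0.000251 in limma). The collagen-binding proteoglycans lum and dcn had -0.07 and 0.14 and did not pass. The shares called in these lists, from 0% to 14.3%, stood beside the 11.5% of all genes. Of the 13 called genes of these lists, plod3, lamb2l, nid2a, pxdn, sox9a and kera stayed called without each eye in turn. The other 7, fkbp10a, mmp11b, mmp25a, adamts5, lama2, bgna and mxra8a, were lost without at least 1 eye.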

How the data were processed

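Reads from 12 adult eyes were made strand-specifically from polyadenylated RNA. Per the methods and labels, the authors mapped them to GRCz11 with HISAT2, counted them with featureCounts 2.0.3 and deposited 1 FPKM value for each gene in each eye. Annotation release, strand setting and handling of reads that fit several genes are not given in the sources used here, so values of near-identical copies are uncertain. The deposited FPKM steps gave whole reads (tolerance 0.02) in all 12 eyes for 24681 genes, and 751 genes were at 0. No 2 eyes of a genotype agreed within sampling noise.

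The test was limma (version 3.58.1, under R version 4.3.3), two-sided, with genotype as the only term and a trended variance, on log2(FPKM + 0.5) of the 18473 genes that reached 0.5 FPKM in 6 or more of 12 eyes, with Benjamini-Hochberg adjustment over all of them. The added constant understates changes of low genes. The exact permutation test over eyes used all 924 splits, with a smallest p of 0.00216. The fit was also run on simulated data with each gene drawn independently, which does not cover variation shared between genes in these eyes. Columns of no sample: 0 used.

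Named were called members, the 3 most abundant of each main class, the 2 most abundant of the rest, copies of called members, and called companions. Other members described, the bone list, lum, dcn, sox9b, acana, acanb, the red cell genes named and the listed bone and lens genes were chosen after their values were seen. Members and lists were chosen with earlier results of these data known. Alternatives were other scalings, constants and filters, voom on recovered reads, a replicate block and leaving out each eye. Coordinates are not given, because the annotation at hand is of GRCz12tu, which was used only to find which collagen genes share the chromosome of akr7a3. No sequences were used here.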

Additional observations from a re-analysis of the deposited data

Results flagged for a closer look

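Of 44 groups of 6 eyes examined, 4 had an eye set apart from the rest, with a gap to its nearest neighbour, relative to the group's range, past Dixon's critical value, and chance flags about 1 in 20 groups. In col21a1, akr7a3-/- eye 7 had 1.30 FPKM. In the summed cartilage and vitreous collagens, akr7a3-/- eye 8 had 97.8 FPKM. In the ratio of col10a1a to col10a1b, akr7a3-/- eye 7 had 1.80, and akr7a3+/+ eye 3 had 4.35, where both copies were at their lowest levels.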

How the results depend on the processing

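The number of collagens called ran from 0 to 6 when each eye was left out in turn, 0 without akr7a3-/- eye 8 and 6 without akr7a3+/+ eye 4, while all genes called ran from 1518 to 2029 and companions called from 7 to 17, against 13. The 4 called collagens held their direction in every setting. With 1 as the added constant, a mean of at least 1 FPKM, or voom on recovered reads, 6 collagens were called. The eyes that share a number did not deviate together (correlations 0.0849, -0.20 and 0.0691 for numbers 1, 4 and 7), so the number was not taken as a pairing. With the replicate block, which uses only the 3 shared numbers, 1 gene was called in all, 0 collagens and 0 companions, the median log2 fold change of the 50 collagens was -0.10, against 0.15 without the block, and the log2 fold change changed sign in uncalled collagens: col4a5 -0.21, col4a6 -0.14, col4a3 -0.16, col4a1 -0.069, col4a4 -0.16, col2a1b -0.23, col9a2 -0.11, col11a1a -0.12 and col5a2a -0.23. Leaving out 1 eye also turned signs among uncalled collagens near 0, with ranges of -0.084 to 0.014 for col18a1a, -0.018 to 0.13 for col4a2, -0.026 to 0.11 for col4a1, -0.28 to 0.12 for col6a2, -0.12 to 0.14 for col2a1b, -0.033 to 0.15 for col5a2a and -0.57 to 0.16 for col28a1a. The ratio of fibrillar sums, akr7a3-/- over akr7a3+/+, stayed between 1.30 and 1.83. Depth limits the low values: col21a1 had 41 to 127 reads an eye, and the lowest eye of col10a1b 8 reads.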
